A study of Mus musculus with 3 samples.

Results

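The 42 mitosis and spindle genes are a list of genes that carry a cell from the entry into mitosis to the separation of the daughter cells. They were chosen by symbol, and all 42 were found among the 27734 genes that were listed in all 3 runs. The study compared early thymocytes of C57BL/6 mice by single-cell RNA sequencing in 3 runs of 10x libraries, each from 4 thymi that were pooled and sorted once after depletion of CD4 and CD8 cells. Run 1 held total double negative (DN) thymocytes, which lack CD4 and CD8, and TCRγδ+ thymocytes. Run 2 held DN1 and DN2 thymocytes, which are CD44+, without TCRγδ+ cells. For run 3, the DN1 and DN2 cells, the DN3 cells and the TCRγδ+ cells were sorted apart and then mixed. The labels give an age of 6 weeks for all mice and name no engineered allele and no agent in any run. As each sort was made once, the runs were not replicates of each other, and a difference between runs cannot be told apart from the sort, the mice, the kit and the version of the counting software.

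At the entry into mitosis, cyclin B activates CDK1, and Polo and Aurora kinases then build the spindle. Kinetochores tie the chromosomes to its microtubules, and the spindle checkpoint holds back CDC20 and the anaphase-promoting complex until every chromosome is attached. The complex then marks cyclin B for degradation, and the central spindle and the cleavage furrow divide the cell. Transcripts of these genes accumulate in G2 and mitosis. In the thymus, early thymocytes divide at the DN2 stage, most DN3 cells stop dividing while they rearrange the β chain locus, and cells that pass β-selection divide again. Such transcripts are commonly read as a sign of cells in this part of the cell cycle, and fewer dividing cells cannot be told apart from less RNA of these genes per cell in a summed count.

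Promoters of such genes are known for the cell cycle genes homology region (CHR), which MuvB complexes bind, and for CCAAT boxes, which NF-Y binds. These were therefore looked for in the RefSeq promoter windows on GRCm38.p6, which run from 250 bases before to 50 bases after a transcript start. Of the 42 genes, 36 had a window, and there were 38 windows in all since Ect2 and Prc1 had more than 1. No window was matched for Aurkb, Cdc25c, Incenp, Kif20a, Spc24 and Tpx2. The words were TTTGAA and TTTAAA for the CHR, CCAAT for the NF-Y box, and TTTCCCGC, TTTGGCGC, TTTCGCGC and TTTGCCGC for E2F, each on either strand. In 1 of the 38 windows, a CHR word and a CCAAT word shared bases. The windows of the cyclins Ccnb1 and Ccnb2, the ubiquitin-conjugating enzyme Ube2c, the kinase Plk1 and the centromeric histone Cenpa show the arrangement that most members shared, and that of Nusap1, a microtubule-binding protein, shows a window without any of the words. Bases of a CHR or CCAAT word are in capitals.
Ccnb1 (chr13:100786437-100786736, minus strand): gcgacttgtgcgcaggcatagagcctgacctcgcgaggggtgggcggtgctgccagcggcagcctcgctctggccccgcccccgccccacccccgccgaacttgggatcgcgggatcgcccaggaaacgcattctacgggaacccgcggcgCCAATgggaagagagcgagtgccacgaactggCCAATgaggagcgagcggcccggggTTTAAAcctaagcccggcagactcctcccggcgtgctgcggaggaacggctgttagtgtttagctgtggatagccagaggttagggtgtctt
Ccnb2 (chr9:70421505-70421804, minus strand): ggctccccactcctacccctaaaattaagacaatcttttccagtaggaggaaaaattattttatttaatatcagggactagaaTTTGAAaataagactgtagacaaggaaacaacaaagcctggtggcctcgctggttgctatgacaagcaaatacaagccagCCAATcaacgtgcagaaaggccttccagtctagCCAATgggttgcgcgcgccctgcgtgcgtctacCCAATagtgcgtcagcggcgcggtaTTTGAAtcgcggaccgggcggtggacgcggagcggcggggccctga
Ube2c (chr2:164769679-164769978, plus strand): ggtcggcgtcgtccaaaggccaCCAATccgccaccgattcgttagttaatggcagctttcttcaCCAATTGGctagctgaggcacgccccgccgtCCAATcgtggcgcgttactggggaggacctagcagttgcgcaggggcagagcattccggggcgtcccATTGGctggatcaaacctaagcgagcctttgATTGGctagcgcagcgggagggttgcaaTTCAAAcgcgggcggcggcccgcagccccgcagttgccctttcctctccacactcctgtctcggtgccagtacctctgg
Plk1 (chr7:122159185-122159484, plus strand): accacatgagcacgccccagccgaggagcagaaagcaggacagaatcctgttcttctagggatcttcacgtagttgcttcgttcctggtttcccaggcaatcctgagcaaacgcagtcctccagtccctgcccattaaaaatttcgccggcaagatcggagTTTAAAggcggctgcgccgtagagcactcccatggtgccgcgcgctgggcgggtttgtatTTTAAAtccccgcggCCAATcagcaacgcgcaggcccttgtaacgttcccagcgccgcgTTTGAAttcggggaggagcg
Cenpa (chr5:30666636-30666935, plus strand): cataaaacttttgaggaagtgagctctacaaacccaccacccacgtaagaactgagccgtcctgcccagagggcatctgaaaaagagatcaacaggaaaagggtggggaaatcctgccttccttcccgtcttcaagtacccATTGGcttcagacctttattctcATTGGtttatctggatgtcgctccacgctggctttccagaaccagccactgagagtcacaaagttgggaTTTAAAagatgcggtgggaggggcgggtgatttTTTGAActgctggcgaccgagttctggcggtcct
Nusap1 (chr2:119618048-119618347, plus strand): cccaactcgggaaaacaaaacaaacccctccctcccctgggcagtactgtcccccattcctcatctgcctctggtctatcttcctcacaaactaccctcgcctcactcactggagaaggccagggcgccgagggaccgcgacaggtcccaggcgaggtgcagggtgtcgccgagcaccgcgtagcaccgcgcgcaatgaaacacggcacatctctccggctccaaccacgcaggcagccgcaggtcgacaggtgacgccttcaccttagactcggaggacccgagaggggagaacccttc

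A CHR word was found in 33 of the 38 windows of these genes (86.8%), compared to 27.5% of the 32813 windows of all other genes and 21.95% of the 41 windows of the DNA replication genes used below. Counting only words that began at -50 or later relative to the transcript start, these shares were 76.3%, 8.20% and 9.76%. A CCAAT word was in 76.3% of the windows of the mitosis genes, 37.4% of all other windows and 53.7% of the replication windows, and windows with at least 2 CCAAT words made up 52.6%, 11.6% and 34.1%. Both a CHR word from -50 on and a CCAAT word were in 65.8% of the windows of these genes, 3.27% of all other windows and 4.88% of the replication windows. The E2F words had another distribution, with 5.26% of the windows of the mitosis genes, those of Cdk1 and Kif15, 2.26% of all others and 36.6% of the replication windows. In Ccnb1, the CHR word began at -42, and the CCAAT words lay upstream of it at -99 and -67. Ccnb2 had a CHR word at 4 and CCAAT words at -87, -54 and -21. Ube2c had the most CCAAT words, 6, with a CHR word at -29. Plk1 had 3 CHR words, at -89, -29 and 30, and 1 CCAAT word at -14. Nuf2, Nusap1 and Tacc3 had neither word in the window. These matches describe letters in a window, and no binding was measured.

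**Figure D1:**
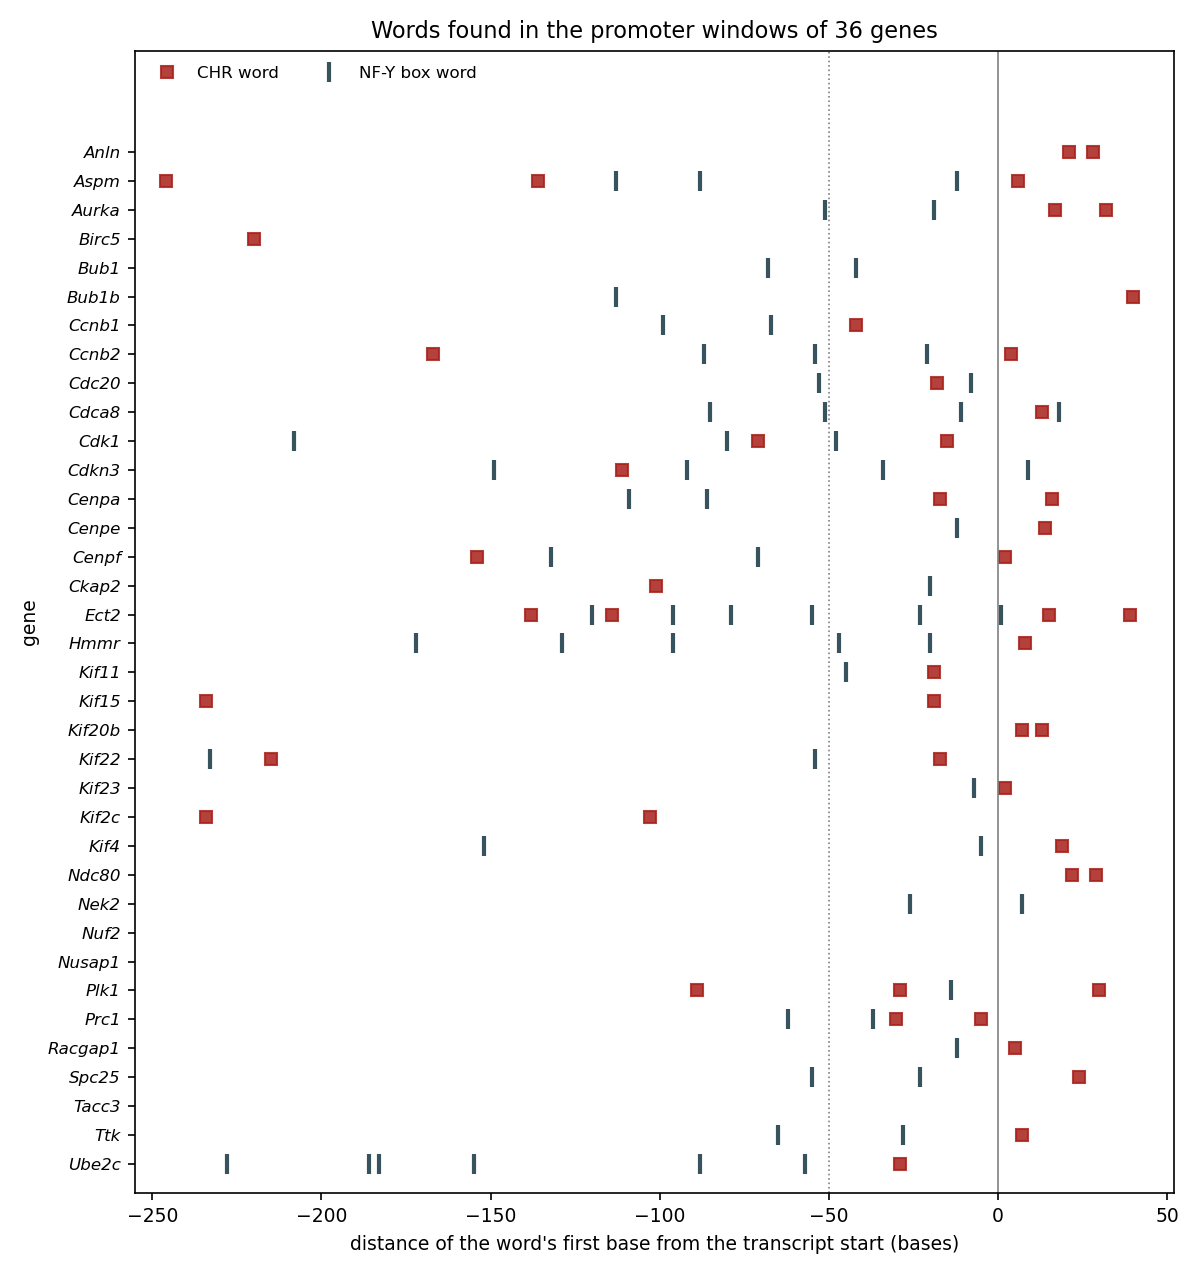
Positions of CHR words (red squares) and NF-Y box words (dark ticks) in the promoter windows of 36 genes, with the distance of the word's first base from the transcript start on the x axis in bases and a dotted line at -50. CHR words crowd around the start, where 76.3% of the windows have one from -50 on, and Nuf2, Nusap1 and Tacc3 have empty rows. For Ect2 and Prc1, the words of both windows are drawn in 1 row.

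Levels are unique molecular identifiers (UMIs) of a gene or list per 1000000 UMIs (CPM), summed over the cells named. A molecule is counted once near its 3′ end, so levels were not divided by transcript length, and differences in capture between genes were not corrected. Of the deposited cells, 5516 of run 1, 8852 of run 2 and 7511 of run 3 had 500 to 5000 genes and at most 7% mitochondrial counts, with a median of 5989.5, 4844 and 8507 UMIs. These cells held 146818, 144300 and 170121 UMIs of the 42 genes, and the fewest for any gene and run were 389 for Anln in run 2. The 5 thymocyte markers were all detected in every run and summed to between 2592 and 6337 CPM in the gates below. Markers of B cells, myeloid or dendritic cells, plasmacytoid dendritic cells and epithelial cells each summed to at most 175 CPM in any gate, while erythroid markers reached 95.5 CPM and NK receptor genes 2416 CPM. Alas2, an erythroid marker, and Krt8, an epithelial marker, were at 0 in run 1, so the epithelial levels of that run are those of Epcam alone. Cell barcodes were shared by 72 cells of runs 1 and 2, 3 of runs 1 and 3, and 0 of runs 2 and 3. The labels of the sorts are surface phenotypes, and the library of run 2, sorted without TCRγδ+ cells, still held cells with Trdc transcripts.

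Together, the 42 genes made up 3689 CPM in run 1, 2742 CPM in run 2 and 2173 CPM in run 3, over all UMIs of the cells kept. The order of the runs was not the same for all of them. The level was highest in run 1 for 27 genes, in run 3 for 13 and in run 2 for Cdkn3 and Ect2. The 13 were Incenp, Cenpe, Cenpf, Ndc80, Kif4, Kif11, Kif15, Kif20b, Hmmr, Aspm, Prc1, Kif23 and Anln and encode proteins of the passenger complex, the kinetochore, the spindle and the cleavage furrow. The kit and the Cell Ranger version may have differed between runs, and their part in this was not tested. The limit of 5000 genes removed 552 cells of run 3, which had 5480 CPM, but only 3 and 2 cells of runs 1 and 2. The place of run 3 in the order of the runs, here and below, thus holds for the cells kept. Levels of the runs without this limit were not computed.

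Cyclin B and CDK1 form the kinase that starts mitosis. Ccnb2 was the highest of this group, at 219.5 CPM in run 1, 151 CPM in run 2 and 66.4 CPM in run 3. Ccnb1 followed the same order with 150, 87.7 and 40.7 CPM, and Cdk1 with 151, 102 and 49.9 CPM. Cdc25c, the phosphatase that activates CDK1, was the lowest, with 15.5, 12.9 and 8.66 CPM, and Cdkn3, a phosphatase acting on CDKs, was between 18.3 and 24.8 CPM. As a group, the 5 genes had 557 CPM in run 1 and 184 CPM in run 3.

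The partners of the anaphase-promoting complex had high levels. Ube2c, which passes ubiquitin to its substrates, was at 317 CPM in run 1, 292 CPM in run 2 and 160 CPM in run 3, and the activator Cdc20 was at 171, 128 and 47.9 CPM. Of the kinases that build the spindle, Plk1 had 81.7, 52.8 and 26.1 CPM, Aurka had 68.3, 47.8 and 22.4 CPM, and Nek2, a centrosomal kinase, had the lowest level with 25.2, 19.6 and 8.76 CPM. All of these were highest in run 1 and lowest in run 3. The 3 spindle checkpoint kinases were low in each run, from Bub1b with 49.3, 39.3 and 39.2 CPM to Ttk with 18.0, 14.8 and 11.8 CPM.

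In the chromosomal passenger complex, Birc5 (survivin) had 327, 220 and 133 CPM in runs 1, 2 and 3, respectively, and the kinase Aurkb had 105, 70.6 and 28.9 CPM. Incenp, the scaffold of the same complex, went the other way between runs 1 and 3, with 90.9, 72.7 and 109 CPM. Among the kinetochore and centromere genes, Cenpa had 196, 171 and 100.5 CPM, while Cenpf, a large kinetochore protein, had 94.3, 59.4 and 110 CPM. Nuf2, a subunit of the NDC80 complex, had the lowest level of this group with 34.9, 26.8 and 18.5 CPM. Hence, genes of 1 complex did not share the order of the runs.

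Kinesins move along or depolymerize microtubules. Of the 6 in this role, which leaves out Cenpe, Kif20a and Kif23 of the other roles, Kif22 had the highest mean level with 79.0, 54.4 and 31.7 CPM, and Kif4 the lowest with 17.4, 13.3 and 34.0 CPM. The 6 summed to 236 CPM in run 1, 165 CPM in run 2 and 251 CPM in run 3. In spindle assembly, Nusap1 had 169, 144 and 95.7 CPM, whereas Aspm, which focuses spindle poles, had 13.8, 9.60 and 29.9 CPM. In the central spindle and cytokinesis group, Racgap1, a component of centralspindlin, had 88.9, 75.3 and 41.0 CPM, and Anln, a scaffold of the cleavage furrow, had 11.3, 7.39 and 15.4 CPM. The remaining 18 genes lay between 14.9 and 211 CPM in every run. In the annotation of GRCm38, Ccnb1 spans chr13:100778650-100786570 on the minus strand, and Birc5 chr11:117849251-117855743, Ube2c chr2:164769898-164778822 and Kif4 chrX:100625737-100727214 lie on the plus strand.

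**Figure D2:**
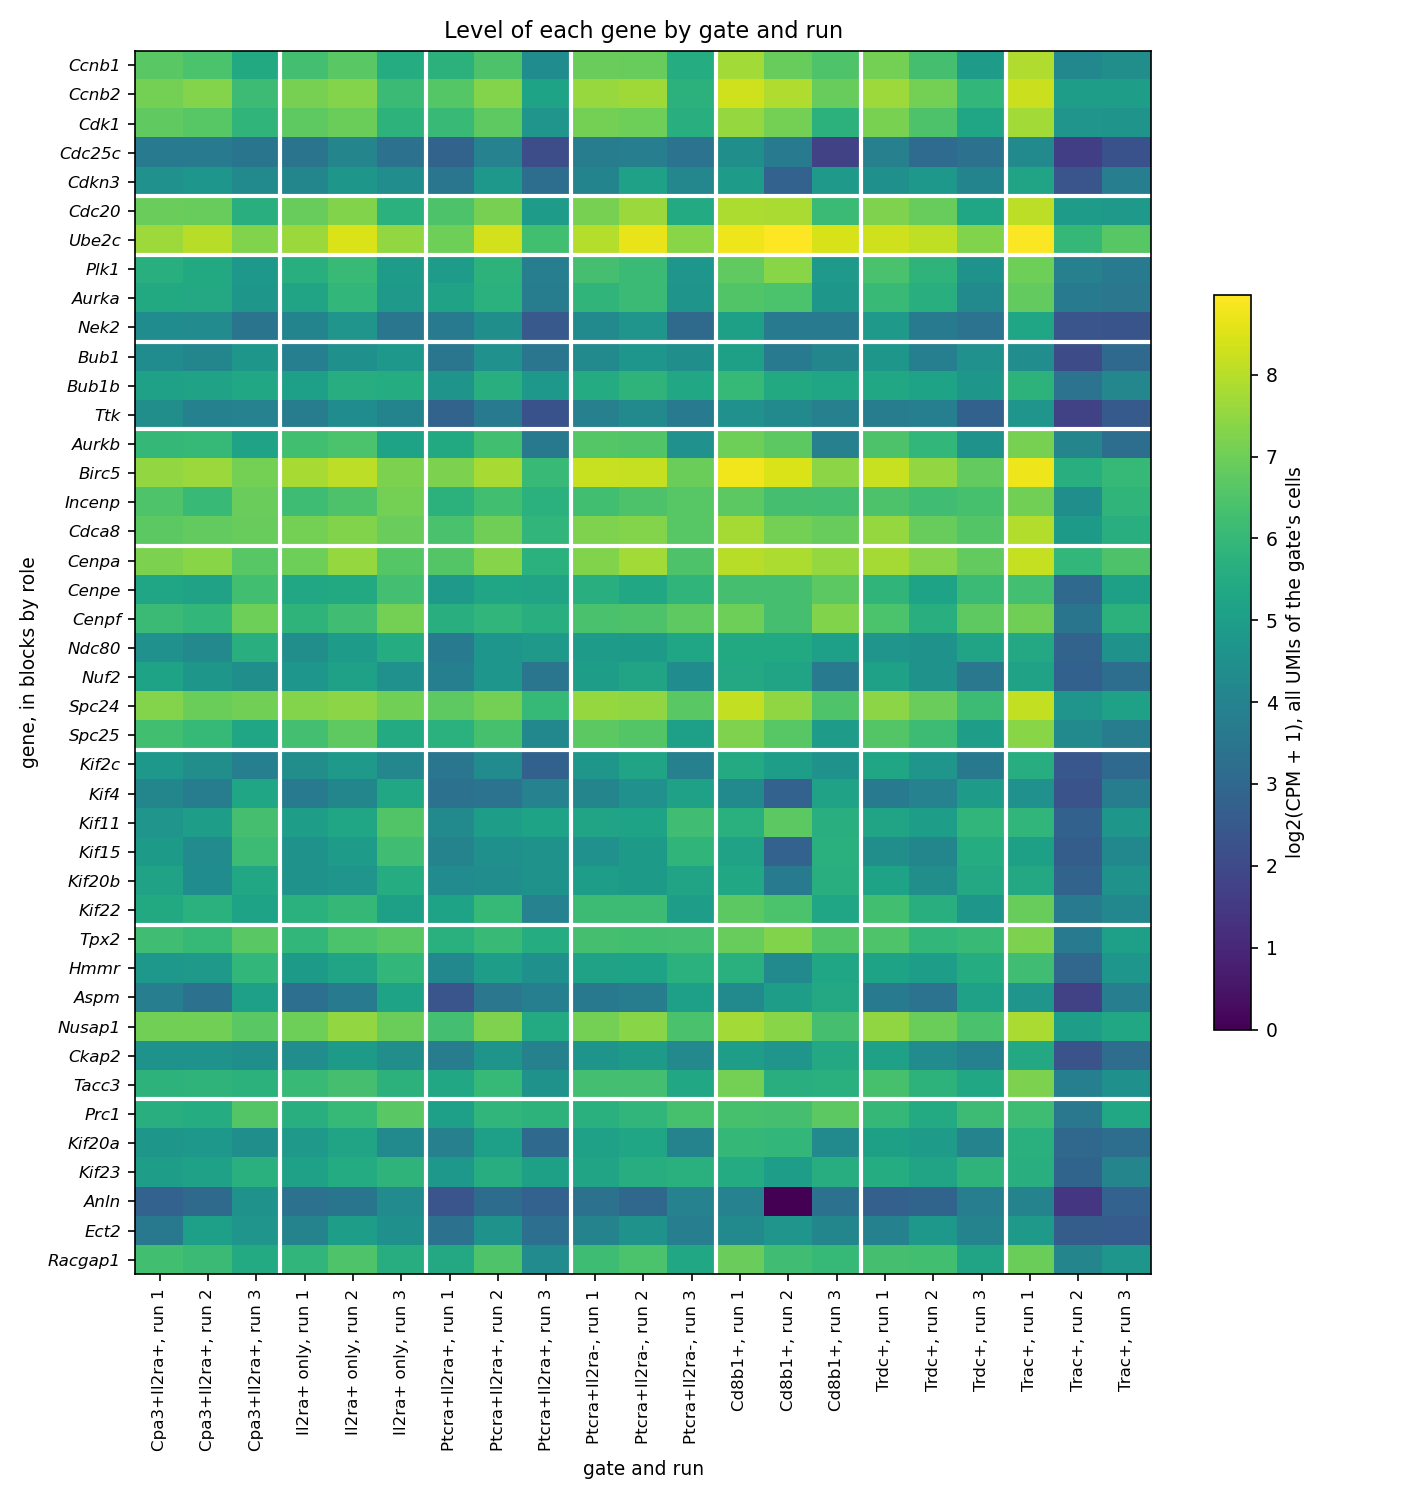
Level of each of the 42 genes (rows, in blocks by role from cyclin B at the top to cytokinesis at the bottom) as log2(CPM + 1) over all UMIs of the cells in each gate and run (columns). Ube2c, Birc5, Ccnb2 and Cenpa form bright rows, and the Trac+ columns of runs 2 and 3 and the Ptcra+Il2ra+ column of run 3 are darker than the others.

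To compare stages at the same depth, each cell was thinned to 2000 UMIs at random, which left out 48 cells of run 3 with fewer. Gates were then set by the presence of transcripts only. Cpa3 marks early progenitors, Il2ra encodes CD25, and Ptcra encodes the pre-TCRα chain of cells at β-selection. Cd8b1 rises after β-selection, and Trdc and Trac are the constant regions of the δ and α chains. The Cpa3+Il2ra+ and Il2ra only gates had no Ptcra or Cd8b1, the Ptcra gates had no Cd8b1, and the Cd8b1+ gate had no Il2ra or Cpa3. Ptcra+Il2ra- cells also had no Cpa3, while Ptcra+Il2ra+ cells could have it. The Trdc+ gate needed at least 3 UMIs of Trdc, with or without Trac, and the Trac+ gate needed Trac with fewer than 3 UMIs of Trdc. Neither had Cpa3, Il2ra, Ptcra or Cd8b1. No cell was in more than 1 gate, and these rules left 43.5%, 35.9% and 43.2% of the cells of runs 1, 2 and 3 without a gate. A cell was called high when it had at least 5 UMIs of the 42 genes among its 2000. High cells made up 37.3% (35.995% to 38.6%) of run 1, 18.1% (17.3% to 18.9%) of run 2 and 13.5% (12.7% to 14.2%) of run 3. In contrast, 24.96%, 47.6% and 41.7% of the cells had no UMI of any of the genes. Cells without a gate had 3116, 2230 and 1599 CPM of the 42 genes in runs 1, 2 and 3, and 45.1%, 26.0% and 16.6% of them were high. They made up 1084 of 2056, 827 of 1601 and 537 of 1004 high cells, so the 7 gates hold the smaller part of the high cells in each run. The intervals are exact Clopper-Pearson 95% intervals for shares and exact Poisson 95% intervals for levels, and both cover counting error only. The cut was not at a gap, since 529, 287 and 249 cells had 4 or 5 of these UMIs. With no upper limit of genes, the share of run 3 was 17.4%.

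In run 1, the summed level at 2000 UMIs per cell was 1919 CPM (1791 to 2054) in the 216 Cpa3+Il2ra+ cells and 1696 CPM (1631 to 1763) in the 748 cells with Il2ra only. It was 1025 CPM (959 to 1093) in the 447 Ptcra+Il2ra+ cells and 2108 CPM (2034 to 2185) in the 719 Ptcra+Il2ra- cells. Hence, of the 7 gates, the level was lowest where Ptcra and Il2ra were found together. The 556 Cd8b1+ cells had the highest level, with 4311 CPM (4190 to 4435), and 62.1% (57.9% to 66.1%) of them were high, compared to 9.17% (6.66% to 12.2%) of the Ptcra+Il2ra+ cells. Trdc+ cells had 2379 CPM (2263 to 2499), and 30.2% (25.4% to 35.5%) were high.

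In run 3, Ptcra+Il2ra+ cells were the lowest of the Il2ra and Ptcra gates, and Trac+ cells were lower still. The level was 1764 CPM (1676 to 1856) in Cpa3+Il2ra+ cells, 1723 CPM (1674 to 1774) in cells with Il2ra only, 733 CPM (684 to 784) in Ptcra+Il2ra+ cells and 1280 CPM (1199 to 1365) in Ptcra+Il2ra- cells. High cells made up 19.3%, 17.0%, 5.31% and 10.9% of these gates. Trdc+ cells had 1190 CPM (1125 to 1258), with 9.14% high. The Cd8b1+ gate held only 40 cells, with 1712 CPM (1438 to 2024) and 15.0% (5.71% to 29.8%) high. In addition, 394 cells of run 3 had Cd79a and another B cell marker, and they had 1234 CPM (1157 to 1314) with 7.61% high.

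In run 2, which was sorted for DN1 and DN2 cells, the Il2ra and Ptcra gates differed less than in the other runs. The level was 1856 CPM (1788 to 1926) in Cpa3+Il2ra+ cells, 2314 CPM (2253 to 2377) in cells with Il2ra only, 1712 CPM (1628 to 1800) in Ptcra+Il2ra+ cells and 2269 CPM (2166 to 2376) in Ptcra+Il2ra- cells. High cells made up 19.5%, 26.5%, 19.7% and 26.0%. The sort left out cells with TCRγδ on the surface, and the Trdc+ gate by transcripts held 638 cells with 1371 CPM (1307 to 1436) with 13.0% high. The Cd8b1+ gate held only 22 cells, with 1636 CPM (1280 to 2061).

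The Trac+ gate was not 1 population across the runs. In run 1 it held 94 cells with 3984 CPM (3704 to 4280) of the mitosis genes, 58.5% of them high, and 56.4 CPM of NK receptor genes. In run 2 it held 2244 cells with 300 CPM (284 to 316), 1.60% (1.13% to 2.21%) high, and 2416 CPM of NK receptor genes. In run 3 it held 979 cells with 624 CPM (590 to 660), 3.47% high, and 1439 CPM of NK receptor genes. In run 2 it had the lowest level of the 7 gates for 41 of the 42 genes. Although few of these cells of run 2 were high, 32.6% had at least 1 UMI of the 42 genes, at a median depth of 2869 UMIs before thinning, compared to 60.0% of the Cpa3+Il2ra+ cells of the same run at 6529 UMIs. A share of cells with a single UMI was thus not read as dividing cells.

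**Figure D3:**
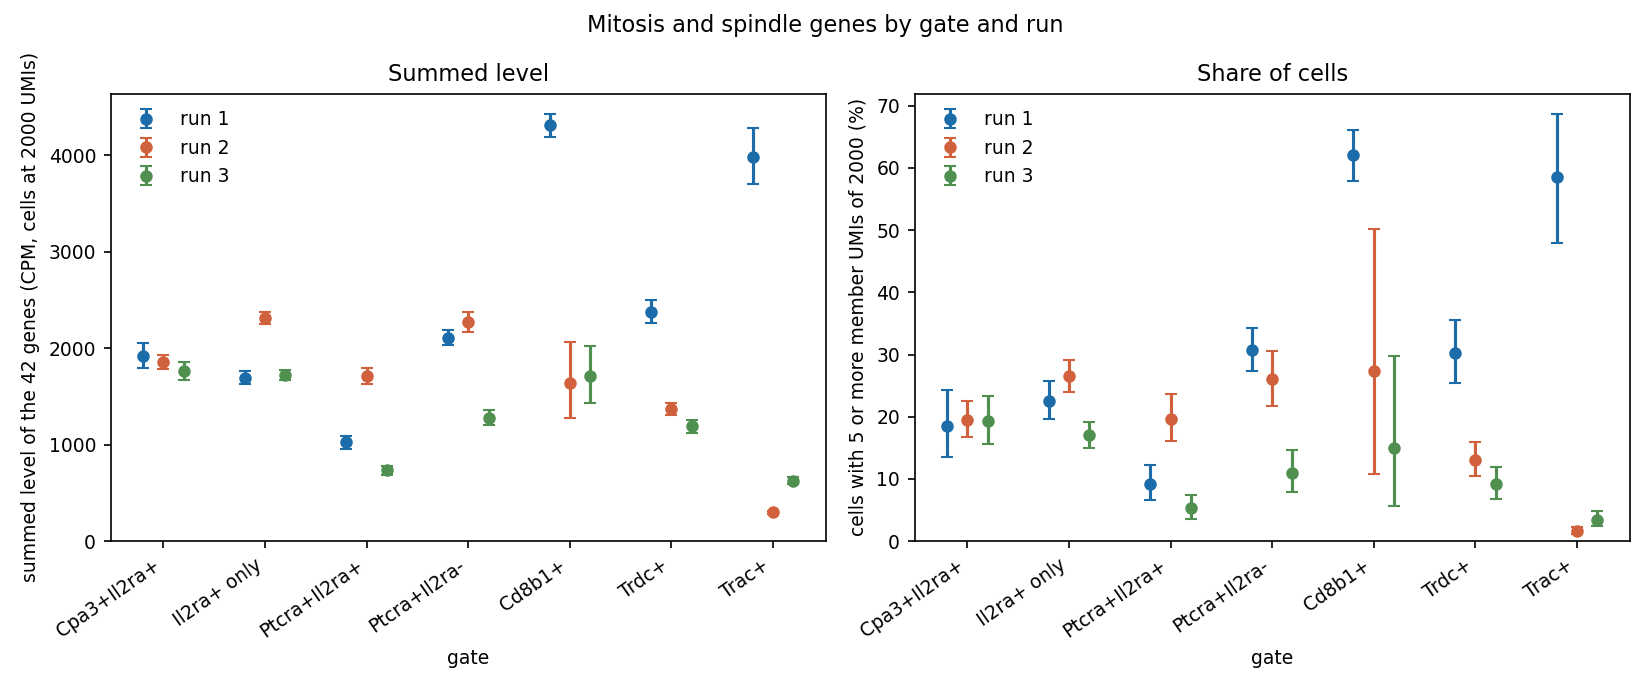
Summed level of the 42 genes in CPM at 2000 UMIs per cell (left) and share of cells with at least 5 of their UMIs (right) by gate, with a point for each run and exact Poisson (left) or Clopper-Pearson (right) 95% intervals. In each run the Ptcra+Il2ra+ gate lies below the gates on either side of it in both panels, and in run 1 the Cd8b1+ and Trac+ gates lie highest.

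For tests between gates, the raw counts of each gate were summed per run, which gave 21 libraries, and fitted together with the run as a block by the quasi-likelihood test of edgeR (two-sided, Benjamini-Hochberg adjusted over all 10968 genes tested). All 42 genes passed the filter on low counts. The spread came from 3 runs that were sorted differently, and it was pooled over all gates, among them the Trac+ gate. A test thus asks whether a difference between gates was larger than this pooled spread. It does not ask how much that difference itself varied between runs, so a difference with the same sign in all 3 runs can fail it. Gates are shared between the comparisons, so these are not independent of each other.

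The first comparison was between cells with Il2ra only and Cpa3+Il2ra+ cells. The median difference of the 42 genes was 0.10 (log2), compared to 0.00 for all genes tested, and it was -0.40 with gates set on all UMIs of a cell and -0.040 without run 2. Summed over the genes and over all UMIs, the log2 ratio was -0.042 in run 1, 0.38 in run 2 and 0.075 in run 3. Over all UMIs, 40 genes were higher in cells with Il2ra only in run 2, while 17 were in run 1. In cells thinned to the same depth, the summed level was lower in cells with Il2ra only in runs 1 and 3 and higher in run 2. In run 3, where the sign thus changed, the levels were 1723 and 1764 CPM and their intervals overlapped. None of the 42 passed the test, compared to 0.219% of all genes higher and 0.228% lower, and none had an unadjusted p under 0.05 by edgeR or by DESeq2. Spc25, a subunit of the NDC80 complex, had the largest difference, 0.35 ± 0.42 (SE), with an adjusted p of 0.9999. When only these 2 gates were fitted, an alternative chosen after seeing the data, Spc25, Birc5, Plk1, Nusap1, Cdca8 and Ube2c were called higher, by 0.28 to 0.44, where 2.61% of all genes were.

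The next comparison was between Ptcra+Il2ra+ cells and cells with Il2ra only. Ccnb1 was at 53.2, 86.5 and 19.5 CPM in the Ptcra+Il2ra+ cells of runs 1, 2 and 3 and at 77.2, 101 and 46.2 CPM in the cells with Il2ra only, over all UMIs. Likewise, Birc5 was at 148, 222 and 65.9 CPM against 220, 271 and 147 CPM, and Kif4, a chromokinesin, at 9.39, 9.77 and 14.6 CPM against 12.3, 16.4 and 40.9 CPM. The levels were thus lower in each run for these genes, with the smallest gap in run 2 for Ccnb1 and Birc5 and in run 1 for Kif4, but the ranges over runs overlapped. In total, 36 of the 42 genes were lower in all 3 runs, and the log2 ratio of the summed 42 genes was -0.57, -0.20 and -1.17. The median difference was -0.63 with a range from -1.23 for Ttk, a checkpoint kinase, to -0.32 for Kif23, a subunit of centralspindlin, compared to a median of 0.01 for all genes. With gates set on all UMIs of a cell instead of 2000, the median of the 42 genes had the other sign, at 0.13.

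None of the 42 genes passed the test in this comparison, compared to 0.538% of all genes higher and 0.155% lower. Unadjusted p-values under 0.05 were found for 8 of them by edgeR and for 2 by DESeq2, which also called none. Kif4 had the smallest p, with a difference of -1.03 ± 0.31 and an adjusted p of 0.168. The call depended on which libraries gave the spread. Without the Trac+ gate, whose cells differed between the runs as described above, Ttk, Kif4, Kif15, Aspm, Kif2c and Ect2 were called lower, where 0.813% of all genes were. With only the 2 gates compared, 32 of the 42 were called lower, by between 0.42 for Cdc20 and 1.26 for Ttk (log2), where 6.94% of all genes were. Both alternatives were chosen after seeing the data. Without run 1, 6 were called lower, where 2.03% of all genes were. The erythroid markers moved with this difference in runs 2 and 3, from 61.5 and 76.3 CPM in cells with Il2ra only to 1.45 and 2.54 CPM in Ptcra+Il2ra+ cells, and their part in it was not tested. In run 1 they were at 2.21 and 0 CPM, and the summed mitosis genes were lower there as well.

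From Ptcra+Il2ra+ to Ptcra+Il2ra- cells, the difference had the other sign. Ccnb1 was at 121, 118 and 46.3 CPM in the Ptcra+Il2ra- cells of runs 1, 2 and 3, above the levels given for Ptcra+Il2ra+ cells in each run. Birc5 was at 294, 288 and 123 CPM and Kif4 at 15.9, 22.1 and 34.1 CPM. Of the 42 genes, 38 were higher in all 3 runs, and the log2 ratio of their sum was 0.89, 0.30 and 0.88. The median difference was 0.63, with a range from 0.32 for Kif23 to 1.13 for Kif4, compared to -0.02 for all genes, and with gates set on all UMIs it had the other sign, at -0.24. None of the 42 passed the test, while 0% of all genes were called higher and 0.00912% lower. Unadjusted p-values under 0.05 were found for 6 by edgeR and for 4 by DESeq2, and Kif4 had an adjusted p of 0.729 (1.13 ± 0.33). With only the 2 gates, Cenpf, Kif4, Kif2c, Birc5 and Ccnb1 were called higher, where 0.124% of all genes were.

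Cd8b1+ cells were compared with Ptcra+Il2ra- cells, since Cd8b1 is known to be switched on in cells that have passed β-selection. In run 1, all 42 genes were higher in Cd8b1+ cells, with Ube2c at 423 CPM against 248 CPM, Ccnb2 at 317 CPM against 189 CPM and Cenpa at 255 CPM against 152 CPM. In runs 2 and 3, where this gate held 22 and 40 cells, 22 and 27 genes were higher, and Anln had no UMI in run 2. Over all UMIs, the log2 ratio of the sum was 0.63, 0.15 and 0.36. In cells thinned to the same depth, the summed level was 4311, 1636 and 1712 CPM in Cd8b1+ cells of runs 1, 2 and 3. In Ptcra+Il2ra- cells it was 2108, 2269 and 1280 CPM, so the direction in run 2 was reversed. Before thinning, high Cd8b1+ cells of run 2 had a median of 18054 UMIs, against 3041 in those with at most 1 member UMI. The part of depth in this was not tested. The median difference of the 42 genes was 0.44, compared to -0.03 for all genes. None passed the test, compared to 0.574% of all genes higher and 1.84% lower, and none had an unadjusted p under 0.05 by edgeR or DESeq2. The largest difference was that of Cenpe, a kinesin of the kinetochore, with 0.78 ± 0.42 and an adjusted p of 0.410. Without the Trac+ gate, Cenpe, Cenpa and Ccnb2 were called higher, where 1.30% of all genes were, and with only the 2 gates these and Ube2c, where 0.684% were. Without run 1, the median difference was 0.07. The lists used as markers of other cell types also differed between these gates, which does not tell whether other cells were present. In Cd8b1+ cells of runs 1, 2 and 3, B cell markers were at 17.7, 6.10 and 34.99 CPM, against 30.6, 49.1 and 175 CPM in Ptcra+Il2ra- cells. Myeloid or dendritic markers were at 1.14, 0 and 0 CPM against 13.9, 32.0 and 16.4 CPM, and epithelial markers at 18.6, 12.2 and 28.0 CPM against 56.1, 71.9 and 108 CPM. NK receptor genes were at 14.6, 366 and 282 CPM against 68.2, 316 and 183 CPM, so they were lower in run 1 and higher in runs 2 and 3. The part of these lists in the result was not tested.

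Trdc+ cells were compared with Ptcra+Il2ra+ cells, since the standard model has γδ and αβ cells part around this stage. The study proposes that some γδ cells may instead arise straight from DN1 cells. Cenpa was at 217, 162 and 113 CPM in Trdc+ cells against 94.4, 161 and 51.9 CPM, and Ube2c at 316, 273 and 152 CPM against 125, 328 and 75.2 CPM. Both were higher in runs 1 and 3, whereas in run 2 Cenpa was almost equal and Ube2c lower. In all, 42, 8 and 41 of the genes were higher in Trdc+ cells in runs 1, 2 and 3, and the log2 ratio of their sum was 1.04, -0.20 and 0.76. The median difference was 0.42, compared to -0.04 for all genes. It was -0.31 with gates set on all UMIs, 0.23 without run 1 and 0.90 without run 2. None of the 42 was called, although 7.30% of all genes were called higher and 6.87% lower, and Kif4 alone had an unadjusted p under 0.05 by edgeR (0.74 ± 0.34, adjusted p of 0.170) and none by DESeq2. Calls appeared under some other settings. Aspm and Kif4 were called without run 1, where 12.5% of all genes were higher, Cenpa without run 2, where 2.29% were, and Kif4 with at least 2 UMIs of Trdc, where 5.85% were. Without the Trac+ gate, Cenpa, Aspm, Kif2c, Kif4, Cenpe and Kif20b were called, where 10.7% of all genes were. With only the 2 gates compared, none of the 42 was called. Here too, myeloid or dendritic markers were lower in Trdc+ cells, at 5.13, 22.7 and 5.91 CPM against 28.7, 36.2 and 24.8 CPM. B cell markers were also lower, at 28.8, 35.4 and 80.4 CPM against 84.0, 56.5 and 112 CPM. So were epithelial markers, at 31.8, 27.0 and 27.9 CPM against 101, 84.7 and 143 CPM, and the latter were the highest epithelial levels of the 7 gates in each run. In contrast, NK receptor genes were higher in each run, at 197, 408 and 369 CPM against 180, 276 and 151 CPM. The part of these lists in the result was not tested.

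**Figure D4:**
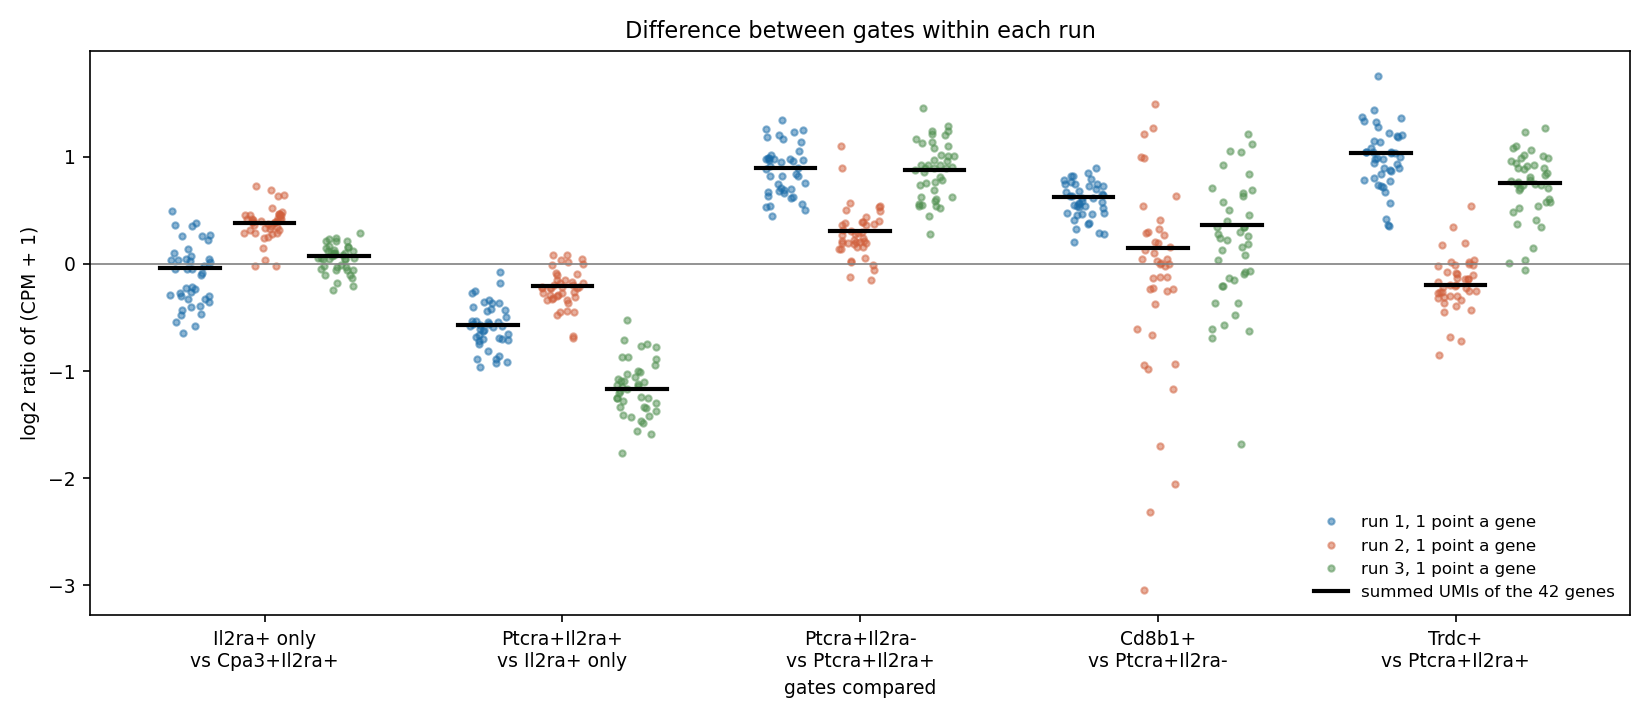
Log2 ratio of CPM + 1 between the gates of each comparison, computed within each run over all UMIs, with a point for each of the 42 genes and a black bar for their summed UMIs. All points lie below 0 in runs 1 and 3 for Ptcra+Il2ra+ against Il2ra only and above 0 in these runs for Ptcra+Il2ra- against Ptcra+Il2ra+, and the summed bars lie on different sides of 0 between run 2 and the other runs for Trdc+ against Ptcra+Il2ra+.

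Other mitosis genes were called in Trdc+ against Ptcra+Il2ra+ cells alone, where 7.30% of all genes were called higher and 6.87% lower, so that the few calls named here are read as no result about their lists. No gene of 29 further kinetochore and centromere genes, 23 checkpoint and anaphase-promoting complex genes and 9 condensin and topoisomerase genes was called in any comparison. In Trdc+ against Ptcra+Il2ra+ cells, Kif2a, a microtubule-depolymerizing kinesin, was higher (0.58 ± 0.14, adjusted p of 0.00991) and Haus3, a subunit of augmin, lower (-0.82 ± 0.16, adjusted p of 0.00146), out of 29 further spindle and cytokinesis genes. Cdc25b, a phosphatase that activates CDKs, was higher out of 11 further CDK and mitosis genes (0.89 ± 0.25, adjusted p of 0.0227). Of 21 regulators, Rbl2, which encodes p130 of the DREAM complex, was higher (1.04 ± 0.24, adjusted p of 0.00737), while E2f4, which acts with it, was lower (-0.61 ± 0.13, adjusted p of 0.00423). From cells with Il2ra only to Ptcra+Il2ra+ cells, the medians of these lists were -0.44 for the kinetochore genes, -0.48 for the spindle genes, -0.55 for the CDK and mitosis genes, -0.53 for the condensin genes, -0.22 for the regulators and -0.15 for the checkpoint genes.

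DNA replication precedes mitosis, so the UMIs of the 42 genes were set against those of 43 replication genes, among them the MCM helicase and the replicative polymerases, in the same thinned cells. In run 1, the ratio was 0.510 in Cpa3+Il2ra+ cells, 0.476 in cells with Il2ra only, 0.385 in Ptcra+Il2ra+ cells and 0.526 in Ptcra+Il2ra- cells. In run 2, it was 0.485, 0.628, 0.536 and 0.761, and in run 3, 0.536, 0.605, 0.426 and 0.621. Thus, in each run it was lower in Ptcra+Il2ra+ cells than in the 2 gates next to them, and higher in Ptcra+Il2ra- cells. With cells thinned to 1000 UMIs, it was higher in Ptcra+Il2ra- than in Ptcra+Il2ra+ cells in 2 of the 3 runs. Cd8b1+ cells of run 1 had 0.700 and Trdc+ cells had 0.642, 0.667 and 0.757 in runs 1, 2 and 3. In the edgeR fit, none of the 43 replication genes was called from Il2ra only to Ptcra+Il2ra+ (median of -0.49) or from there to Ptcra+Il2ra- (0.30), and 1, Prim2, was called lower in Trdc+ cells (-0.85 ± 0.24, adjusted p of 0.0254).

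In single cells, the replication genes had a mean of 11.1, 9.22 and 9.51 UMIs in high cells of runs 1, 2 and 3 and 5.80, 3.88 and 3.20 in cells with at most 1 UMI of the mitosis genes, out of 2000. The members differed in this measure. Cells with a UMI of Ttk, a checkpoint kinase, had a mean of 11.6, 9.38 and 9.60 replication UMIs, and cells with Aurkb had 11.05, 9.37 and 9.44. Spc24 and Spc25, which belong to the same NDC80 complex as Nuf2, were close to them, with 11.3, 9.81 and 8.76 for Spc24, while Ndc80 itself had 12.1, 9.47 and 7.61, with rank 1, 2 and 21 of 42. At the other end, cells with Cenpa had 8.80, 5.70 and 4.59, near the mean of all cells, which was 8.83, 5.39 and 4.46. Cdkn3 had 8.33, 6.00 and 5.19, Cdc20 9.66, 6.72 and 5.91, and Ccnb1 9.93, 6.72 and 6.09. Ttk had rank 3 of 42 in each run, and Cenpa last or next to last. The points share the same cells and depth, so the order is a description.

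**Figure D5:**
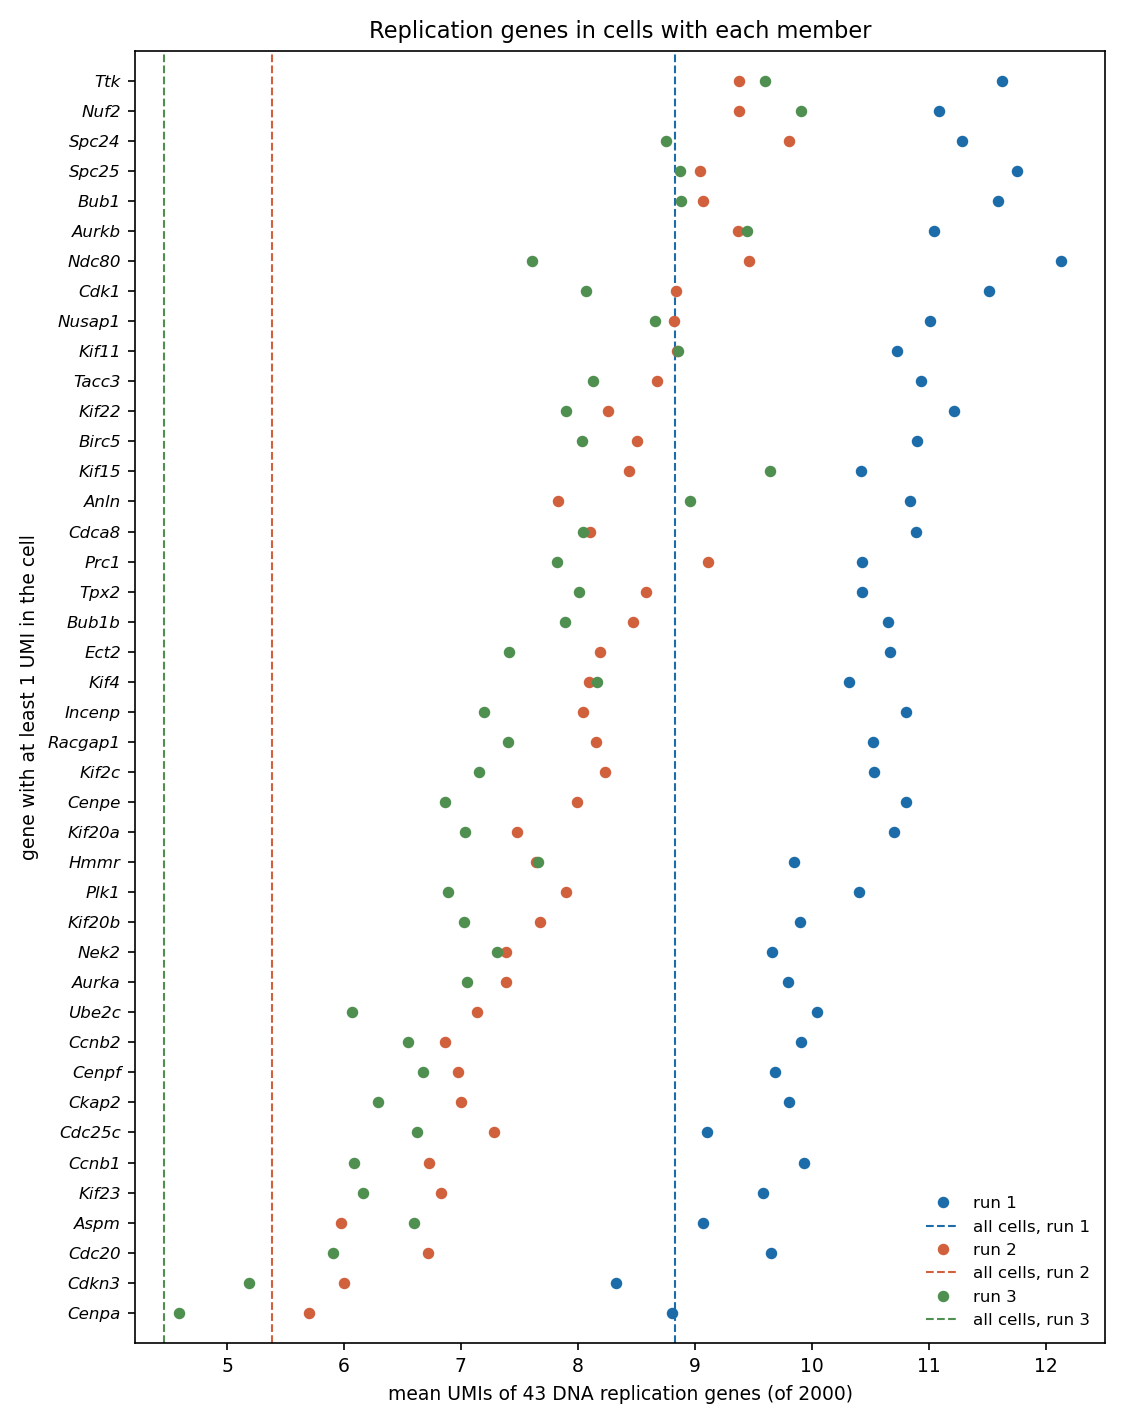
Mean UMIs of 43 DNA replication genes (x axis, of 2000 UMIs per cell) in cells with at least 1 UMI of each of the 42 genes (y axis, ordered by mean rank over runs), with a point for each run and dashed lines at the mean of all cells of a run. Ttk, Aurkb and Spc25 lie at the high end, and Cenpa and Cdkn3 lie near the mean of all cells in each run.

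High cells held between 50.4% and 94.3% of the UMIs of these genes in each gate and run other than the Trac+ gate of run 2, where they held 36.1%. In run 1, they held 79.0% of the member UMIs of cells with Il2ra only and 70.6% of those of Ptcra+Il2ra+ cells, and in run 3 79.0% and 50.4%. The median high cell had 13.5 member UMIs in the Cpa3+Il2ra+ gate and 13 in the Ptcra+Il2ra+ gate of run 1, from 10.5 and 10 different genes. In run 3, these were 13 and 8.5 UMIs from 10 and 7.5 genes. High cells were also deeper before thinning, with a median of 9622, 10130 and 18744 UMIs in runs 1, 2 and 3, compared to 3447, 3913 and 7668 in cells with at most 1. With gates set on all UMIs of a cell, cells changed gates. In run 3, the Il2ra only gate went from 1342 to 863 cells and the Ptcra+Il2ra+ gate from 565 to 1865 cells. The 4 medians given above for that setting had the other sign than at 2000 UMIs, and the part of depth in this was not tested.

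Of the mitosis transcripts in high cells, the cyclin B group made up 12.8% to 15.8% in the 7 gates of run 1, 9.38% to 15.2% in run 2 and 7.98% to 10.2% in run 3. Runs 1 and 3 did not overlap. Run 2 overlapped run 1, and it overlapped run 3 only through its Cd8b1+ gate, which held 6 high cells. The other gates of run 2 ranged from 12.2% to 15.2%. In contrast, kinesins made up 5.81% to 8.04% in run 1, 4.69% to 6.79% in run 2 and 6.82% to 12.6% in run 3, where the Trac+ gate alone lay within the range of run 1. The chromosomal passenger genes ranged from 16.1% to 21.5% in run 1, from 15.6% to 18.9% in run 2 and from 12.0% to 18.4% in run 3. The highest cyclin B share of run 3, the lowest kinesin share of run 2 and the lowest passenger shares of both runs were those of Cd8b1+ gates. These held 6 high cells in each of the runs 2 and 3. No test of this difference was possible with 1 library a run.

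Finally, the genes that went with the 42 were listed by the median log2 ratio of CPM + 1 between high cells and cells with at most 1 member UMI, over 22 pairs of gate and run and 5717 genes with at least 20 CPM. The cells without a gate were used as a further gate in each run, with 1084, 827 and 537 high cells in runs 1, 2 and 3. A pair needed at least 20 cells of each class, so the Cd8b1+ gates of runs 2 and 3, with 6 high cells each, were left out. As the 42 genes define these classes, their own ratios, from 3.14 for Kif23 to 6.29 for Nusap1, are no finding, and no test was made. The 10 highest of the other genes were Pimreg (5.41), Mxd3 (5.18), Esco2 (5.10), Ccna2 (5.06), Ckap2l (5.04), Mki67 (5.01), Depdc1a (4.71), Ncapg (4.604), Cdca3 (4.55) and Cep55 (4.47), each higher in 22 of 22 pairs. Ccna2 is the S and G2 phase cyclin, Esco2 acetylates cohesin, Mxd3 is a MYC antagonist of the MAX network, and Mki67 encodes the proliferation antigen Ki-67. Ccna2 was at a median of 262 CPM in high cells and 5.55 CPM in the others. Foxm1, which encodes a transcription factor of G2 genes, had a ratio of 4.13. It was the highest of the 14 regulators with at least 20 CPM, whose median was 0.73 and whose lowest was Tfdp2 with -0.59. The replication genes had a median of 1.07, with 22 of 41 above 1, compared to a median of -0.03 over all 5717 genes. The 5 lowest were Tcp11l2 (-3.15), Cd74 (-2.94), Xcl1 (-2.92), Kdm7a (-2.71) and Ccl5 (-2.64), of which Xcl1 and Ccl5 encode chemokines of NK and effector T cells and Cd74 the invariant chain of antigen presentation. Kdm7a, a histone demethylase, was higher in high cells in 0 of 22 pairs. All 5 had low levels, with medians from 0 CPM for Cd74 to 10.7 CPM for Ccl5 in high cells. In the others, the medians were from 21.4 CPM for Xcl1 to 76.1 CPM for Ccl5, so these ratios rest on few UMIs.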

How the data were processed

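Single-cell 10x libraries of 3 sorts of thymocytes were analyzed, 1 library a run. The authors aligned the reads to mm10 and counted UMIs with Cell Ranger, and the deposited values are whole, unnormalized UMI counts of each gene in each cell. The header of run 3 gives version 4.0.0, and which version was used for the other runs is not given in the sources used here. Seurat 2.3 and R 3.6.3 are named in the submitters' processing notes. Deposited libraries held 39947415, 52797915 and 98533329 UMIs.

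Genes were joined by identifier, and 0 columns of values were left unused. The cells kept had between 500 and 5000 genes and no more than 7% mitochondrial counts, as in the study, and were thinned to 2000 UMIs for gates and shares. Doublets were kept in the main analysis and scored by Scrublet in scanpy 1.11.5 for an alternative. Raw counts summed per gate and run, for gates with at least 20 cells, were tested with edgeR 4.0.16 in R 4.3.3 (TMM, filterByExpr, quasi-likelihood, 7 gates in 1 fit, threshold of 0.05), with DESeq2 1.42.0 as an alternative. The fit had 12 residual degrees of freedom. The run was a block, since all gates of a run come from the same pooled mice and library. The p-values thus set a difference between gates against a spread over these 3 runs that was pooled over the 7 gates, and not against the variation of that difference alone. The fit was tested on simulated data. Log2 ratios within a run used a pseudocount of 1 CPM.

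Members and lists were chosen with earlier results of these data known. Values are given for a fixed list of 11 genes, for the highest and lowest gene of each role, and for the other genes that went most with or against them; genes beyond these were named after their values were seen. The authors' clusters were not used. The kit of each run is not given in the sources used here.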

Additional observations from a re-analysis of the deposited data

Results flagged for a closer look

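Over all UMIs, the summed mitosis genes moved in different directions in different runs in 2 comparisons, which was not tested with 1 library a run. From Cpa3+Il2ra+ cells to cells with Il2ra only, the log2 ratio was -0.042 in run 1, 0.38 in run 2 and 0.075 in run 3. From Ptcra+Il2ra+ to Trdc+ cells, it was 1.04 in run 1, -0.20 in run 2 and 0.76 in run 3. In cells thinned to the same depth, the directions for Trdc+ cells were the same. For cells with Il2ra only, the level in run 3 was then slightly lower, at 1723 CPM against 1764 CPM in Cpa3+Il2ra+ cells. At that depth, Cd8b1+ cells were also lower than Ptcra+Il2ra- cells in run 2, at 1636 CPM against 2269 CPM, and higher in runs 1 and 3. Run 2 was the run sorted without TCRγδ+ cells, and its Trdc+ gate had 408 CPM of NK receptor genes, compared to 197 CPM in run 1 and 369 CPM in run 3.

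Cells outside the limits on genes and mitochondrial counts entered no comparison, and they differed from the cells kept in their level of the mitosis genes. In run 3, the 552 cells with more than 5000 genes had 5480 CPM (5446 to 5513) of the mitosis genes over all UMIs, compared to 2173 CPM (2163 to 2183) in the cells kept, and 71.2% (67.2% to 74.9%) of them were high at 2000 UMIs. Their median depth was 32189 UMIs. In the same run, the 762 cells over 7% mitochondrial counts had 4010 CPM (3911 to 4111), and 65.9% (59.5% to 72.0%) of the 232 that could be thinned were high. The 44 cells of run 3 with under 500 genes and the 2 of run 2 had 1971 and 208 CPM. In runs 1 and 2, 3 and 2 cells were over 5000 genes and had 4940 and 4965 CPM, compared to 3689 and 2742 CPM in the cells kept, and the 8 and 31 cells over the mitochondrial limit had 917 and 531 CPM.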

How the results depend on the processing

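The 5 comparisons are given in the order of the report. No member was called in any of them with DESeq2, DESeq2 size factors, no filter on low counts, gates at 1000 UMIs, no upper gene limit, doublets removed, or the Cd8b1+ gate of run 1 only. Without the replicate block of the run, 0 members were called in each comparison and the medians were 0.11, -0.57, 0.63, 0.36 and 0.42. Leaving out each run in turn gave 0 to 6 calls from Il2ra only to Ptcra+Il2ra+ and 0 to 2 for Trdc+ against Ptcra+Il2ra+, while the medians ranged from -0.040 (without run 2) to 0.25, -0.98 to -0.40, 0.53 to 0.96, 0.074 (without run 1) to 0.51 and 0.23 to 0.90. The fits with 6 and 2 calls were those without run 1, where 2.03% of all genes were called lower and 12.5% higher, respectively. A Trdc gate at 2 UMIs gave 1 call, where 5.85% of all genes were called higher. Gates on all UMIs gave medians of -0.40, 0.13, -0.24, 0.63 and -0.31. Chosen after seeing the data, leaving out the Trac+ gate gave 0, 6, 0, 3 and 6 calls, and fitting only the 2 gates gave 6, 32, 5, 4 and 0. In the comparisons with calls, 0.813%, 1.30% and 10.7% of all genes were called in the same direction without the Trac+ gate. With only the 2 gates, these shares were 2.61%, 6.94%, 0.124% and 0.684%. The share of high cells was lower in Ptcra+Il2ra+ than in Il2ra only cells in 3 of 3 runs at 1000 UMIs, with no upper gene limit, with doublets removed, with a mitochondrial limit of 5% and with cuts at 3 and 10 UMIs, and it was not computed for gates on all UMIs, while the ratio to the replication genes was higher in Ptcra+Il2ra- cells in 2 of 3 runs at 1000 UMIs. With at least 3 or 10 UMIs as the cut, high cells made up 48.0% or 20.8% of run 1, 22.8% or 12.0% of run 2 and 19.7% or 8.64% of run 3. The Cd8b1+ gate held 22 and 40 cells in runs 2 and 3, so its intervals there were wide.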
